A study of Mus musculus with 6 samples.

Results

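The liver makes fat-soluble compounds water-soluble by joining them to a polar group, and 3 enzyme superfamilies do most of that work. Gene expression of these conjugating enzymes was compared between livers with and without a Retnla transgene. The members were the genes whose symbols begin with Gsta, Gstk, Gstm, Gsto, Gstp, Gstt, Gstz, Mgst, Ugt1, Ugt2, Ugt3 or Sult, and for each gene the probe set (the group of array probes that reads a transcript) with the highest mean over the 6 arrays stood for it. This gave 46 genes out of 18193 with a probe set assigned to a single symbol: 23 glutathione transferases, 8 Ugt2 and 2 Ugt3 glycosyltransferases and 13 sulfotransferases. No Ugt1 gene had a probe set of its own, and 3 probe sets shared by 8 Ugt1a genes were read separately.

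The livers came from 3 Retnla-Tg mice (Tg 5, Tg 6 and Tg 7), which carry a transgene for the secreted resistin-like molecule alpha, and 3 Retnla-non-Tg mice (non-Tg 1, non-Tg 2 and non-Tg 3), with 1 Affymetrix array per mouse. According to the labels, all 6 were male mice aged 3 months on a C57BL6/J background. From an age of 8 weeks they were kept for 4 weeks on a diet with 21% fat plus 0.15% cholesterol, so no group on a standard diet enters the comparison. The sources used here do not give the promoter that drives the transgene or the number of founder lines. The transgene was visible in the arrays: the log2 signal of Retnla was 16.04, 15.91 and 16.04 in Tg 5, Tg 6 and Tg 7, against 6.03, 7.41 and 6.48 in non-Tg 1, non-Tg 2 and non-Tg 3.

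Glutathione transferases (GSTs) attach the tripeptide glutathione to electrophiles such as epoxides and lipid peroxidation products, as cytosolic classes named by Greek letters and as membrane-bound microsomal forms. UDP-glucuronosyltransferases of families 1 and 2 transfer glucuronic acid to bilirubin, steroids, bile acids and drugs, and family 3 enzymes use other sugars. Sulfotransferases transfer sulfate from the donor PAPS to phenols, steroids and bile acids. Many of the genes lie in tandem clusters of close copies, so a probe set named for 1 gene can also read its neighbours. Mouse liver GST and glucuronosyltransferase genes are known targets of the stress sensor NRF2 and of the xenobiotic receptors CAR, PXR and AHR.

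Among the conjugating enzymes above the filter on dim probe sets described below, the largest differences were at 2 genes embedded in such clusters, Gstm3 and Ugt2b38, both higher in Tg livers. The genes next to them, Gstm6 and Gstm2 beside Gstm3 and Ugt2a3 beside Ugt2b38, stood at 0.23, 0.20 and -0.23 on the log2 scale, and no test of one gene's difference against another's was made. The upstream windows of Gstm3 and Ugt2b38 are shown first, each with the windows most like it in its family. They were taken from RefSeq on build GRCm38.p6, which held a window for 41 of the 46 members, 53 windows in all, each running from 250 bases before a transcript start to 50 after it. All 5 windows below are on the minus strand and are written 5′ to 3′. In the Ugt2b group Ugt2b38 (chr5:87424154-87424453) is given in lower case, and capitals in Ugt2b37 (chr5:87254739-87255038) and Ugt2b5 (chr5:87140291-87140590) mark bases that differ from Ugt2b38 or have no partner in it after global alignment.
Ugt2b38: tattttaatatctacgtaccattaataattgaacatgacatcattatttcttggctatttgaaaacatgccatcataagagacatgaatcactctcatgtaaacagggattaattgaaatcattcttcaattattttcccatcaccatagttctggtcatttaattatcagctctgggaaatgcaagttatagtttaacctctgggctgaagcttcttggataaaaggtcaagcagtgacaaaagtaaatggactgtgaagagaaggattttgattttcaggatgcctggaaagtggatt
Ugt2b37: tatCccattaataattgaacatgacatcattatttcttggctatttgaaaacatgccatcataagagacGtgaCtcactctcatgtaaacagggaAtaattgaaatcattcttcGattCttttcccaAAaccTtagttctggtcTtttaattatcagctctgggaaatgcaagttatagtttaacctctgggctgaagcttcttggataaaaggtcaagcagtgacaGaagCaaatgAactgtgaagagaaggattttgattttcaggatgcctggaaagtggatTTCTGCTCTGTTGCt
Ugt2b5: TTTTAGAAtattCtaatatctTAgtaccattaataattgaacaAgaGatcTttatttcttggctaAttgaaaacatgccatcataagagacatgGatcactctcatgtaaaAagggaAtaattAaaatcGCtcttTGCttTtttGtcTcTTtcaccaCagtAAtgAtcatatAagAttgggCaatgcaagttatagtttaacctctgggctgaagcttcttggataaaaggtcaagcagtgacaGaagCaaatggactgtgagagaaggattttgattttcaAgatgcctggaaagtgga
In the Gstm pair, Gstm3 (chr3:107969125-107969424) and the Gstm1 window most like it (chr3:108017769-108018068), capitals mark runs of at least 8 identical bases.
Gstm3: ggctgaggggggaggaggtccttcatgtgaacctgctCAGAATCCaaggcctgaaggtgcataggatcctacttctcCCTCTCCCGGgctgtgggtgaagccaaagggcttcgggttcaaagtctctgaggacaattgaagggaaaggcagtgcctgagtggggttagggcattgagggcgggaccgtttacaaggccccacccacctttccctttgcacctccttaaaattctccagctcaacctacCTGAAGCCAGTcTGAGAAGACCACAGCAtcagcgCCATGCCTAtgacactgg
Gstm1: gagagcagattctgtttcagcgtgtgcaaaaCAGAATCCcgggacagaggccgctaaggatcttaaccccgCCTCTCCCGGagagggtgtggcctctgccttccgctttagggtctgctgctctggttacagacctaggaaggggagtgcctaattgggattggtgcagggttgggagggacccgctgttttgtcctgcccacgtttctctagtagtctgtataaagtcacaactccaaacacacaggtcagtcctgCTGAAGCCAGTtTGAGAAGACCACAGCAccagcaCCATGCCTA

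The Ugt2b37 window was identical to that of Ugt2b38 in 273 of 314 aligned columns (86.9%), with 13 substituted bases. Another 14 bases of Ugt2b37 had no partner, and unpaired bases of Ugt2b38 were not counted. Ugt2b5 was identical in 84.2% of columns, with 29 substituted bases. Gstm3 and Gstm1 shared 58.3%, with 5 runs that together hold 54 bases. The other Gstm windows, those of the adjacent Gstm2 and Gstm6 included, were 43.9% to 48.0% identical to Gstm3, and that of Ugt2a3, adjacent to Ugt2b38, was 47.2% identical to it. The printed windows are thus the most alike and not the closest on the chromosome. Short motifs were searched on both strands. The core of the antioxidant response element that NRF2 binds, TGACNNNGC, was in 4 of the 53 member windows (7.55%), those of Gsta3, Gstm5, Gstm7 and Mgst1, and in 12.4% of all 32851 windows. The core of the xenobiotic response element that AHR binds, TNGCGTG, was in 2 member windows, those of Gsta2 and Sult1d1 (3.77%, against 5.07% of all windows). The STAT5 core TTCNNNGAA was in 4 (7.55%, against 8.30%), and TATAAA in 10 (18.9%, against 13.6%). Of the 5 windows printed, the Gstm1 window holds TATAAA, and they hold no other match to these motifs. No match says only that these letters are not in this window.

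Of the 46 genes, 36 had a mean above the filter on dim probe sets, a log2 signal of 5.63, and entered the test of 12705 genes. The other 10 were Gstt4, Gsto2, Mgst2 and 7 sulfotransferases. None of the 36 passed limma's adjusted p of 0.05 in either direction, while 2 of 12705 genes did (0.0157%, both higher in Tg livers). These 2 include Retnla, the gene of the transgene itself (limma adjusted p = 4.07e-07). In number, 18 of the 36 were higher and 18 lower in Tg livers. The median log2 difference was -0.02, beside 0.01 over all genes tested. At an unadjusted limma p under 0.05 there were 7 members (19.4%, against 6.05% of all genes tested), 2 of them higher (2.93% of all genes) and 5 lower (3.12% of all genes). That count depended on single mice: it was 3 without non-Tg 3 and 10 without Tg 7, and it was 4 with the sets of arrays described below as a block or with no intensity trend. Groups did not overlap for 7 members (19.4%, against 11.7% of all genes tested), 5 higher (6.04% of all genes) and 2 lower (5.64% of all genes). A difference of at least 1.5-fold was seen for 3 members (8.33%, against 11.7%). The median size of the difference was 0.14 in the members and 0.18 over all genes tested. Members were brighter, at a median log2 signal of 13.04 against 8.87, and these shares were not matched for signal level. The plot of signal in each liver shows that for most genes the 6 mice lie close together.

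**Figure D1:**
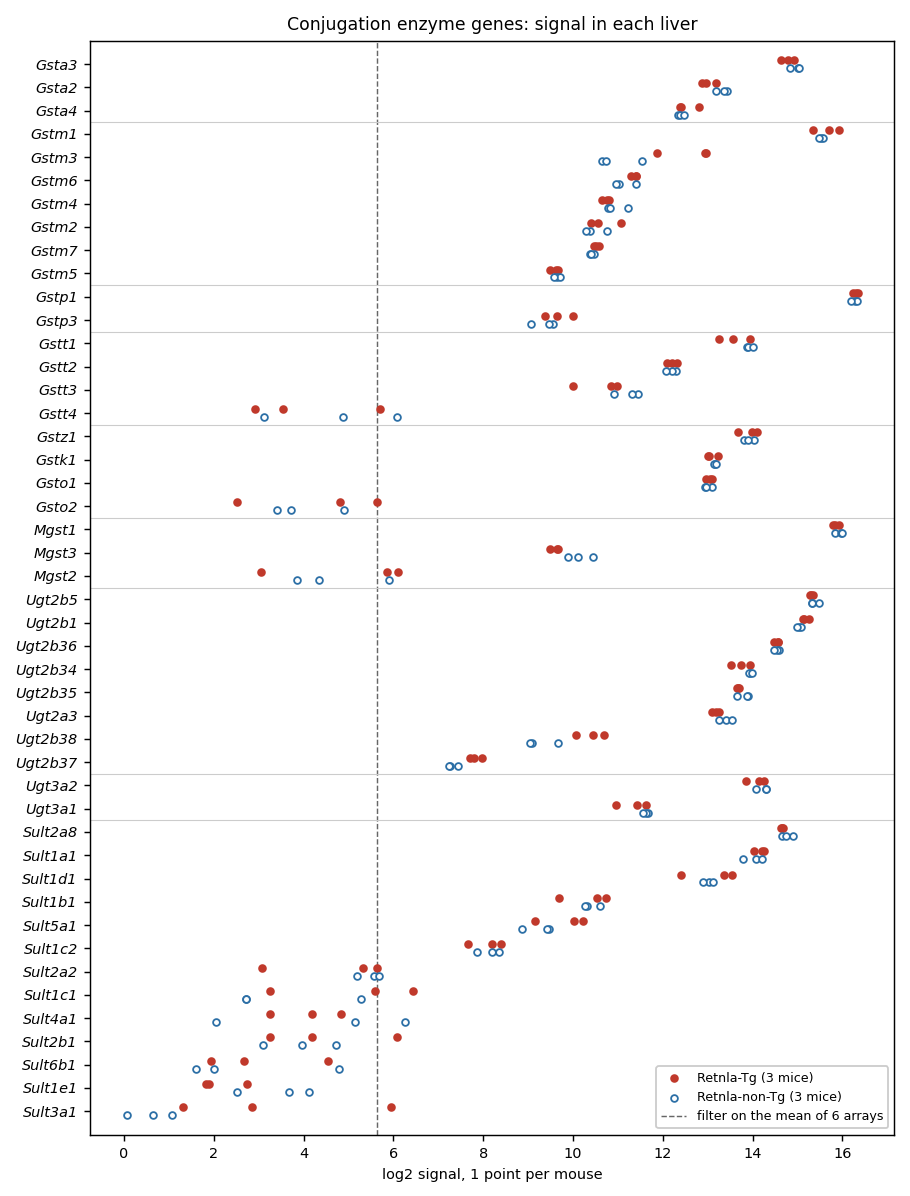
Log2 signal (x axis) of the 46 conjugating enzyme genes (rows, grouped by family with grey lines between families), 1 point per mouse, Retnla-Tg filled and Retnla-non-Tg open. The dashed line is the filter at 5.63. The Tg points of Gstm3, Ugt2b38 and Ugt2b37 lie right of all non-Tg points, and the 10 genes with means left of the line scatter over several log2 units. Signals of different probe sets are not comparable as amounts.

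The mu class, 7 genes side by side on chromosome 3, held the largest difference of the members above the filter. Gstm3 encodes a mu class transferase. Its log2 signal was 12.96, 12.95 and 11.87 in Tg 5, Tg 6 and Tg 7, against 10.65, 11.55 and 10.74 in non-Tg 1, non-Tg 2 and non-Tg 3. Tg 5 and Tg 6 stood high and close together, while Tg 7 was only slightly above non-Tg 2, and the groups did not overlap. The log2 difference was 1.61 ± 0.31 (SE, n = 3 per group), or 3.06-fold with a 95% confidence interval of 1.88 to 4.96, and it did not pass (limma adjusted p = 0.378). With 20 ways to assign the mice, a two-sided exact permutation test gave p = 0.1, the smallest this design allows. Any gene without overlap gets that value, so it adds nothing to the lack of overlap. Without Tg 7 the Gstm3 difference was 1.97 (limma adjusted p = 0.0505), just short of the threshold.

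Gstm3 was read by 2 probe sets, and the other one gave the same picture. The probe set above has the suffix s_at, which marks probes shared by several transcripts, and the other is a plain at set. This second set read 11.04, 11.23 and 10.22 in Tg 5, Tg 6 and Tg 7, against 9.33, 9.76 and 9.32 in non-Tg 1, non-Tg 2 and non-Tg 3. Again the groups did not overlap and Tg 7 was the lowest of the Tg livers. The log2 difference of the second set was 1.36 ± 0.24 (SE, n = 3 per group).

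The arrays fall into a lower and a higher set by the signal of bioC, a bacterial control transcript added before hybridization. Its mean log2 signal was 9.94 and 9.83 for Tg 5 and Tg 6 and 9.93 for non-Tg 1, while it was 11.33 for Tg 7 and 11.44 and 11.21 for non-Tg 2 and non-Tg 3. The sources used here do not say what separates the sets. Within the lower set the Gstm3 difference was 2.31, and within the higher set it was 0.72. Both are in the same direction, and the difference within the lower set rests on 1 non-Tg liver, that within the higher set on 1 Tg liver.

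The other 6 mu class genes differed by -0.21 to 0.23 on the log2 scale. Gstm1, whose product is a major mu class enzyme of liver, had log2 signals of 15.92, 15.70 and 15.35 in Tg livers, against 15.53, 15.57 and 15.47 in non-Tg livers. Tg 5 and Tg 6 were above and Tg 7 below all non-Tg livers, so the groups overlapped, with a log2 difference of 0.13 ± 0.13 (SE, n = 3 per group). The other 3 Gstm1 probe sets gave 0.06 to 0.17. Gstm2, the neighbour of Gstm3 on one side, differed by 0.20 ± 0.19 (SE), and Gstm6, the neighbour on the other, by 0.23 ± 0.14 (SE). Gstm4 stood at -0.21 and Gstm5 at -0.05. Gstm7 was the other mu class gene without overlap, at 0.10 ± 0.12 (SE), and its second probe set gave -0.14. These 5 genes were singled out after their values were seen, as the rest of the cluster. The median of the 7 mu class genes was 0.13, with 5 higher and 2 lower.

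**Figure D2:**
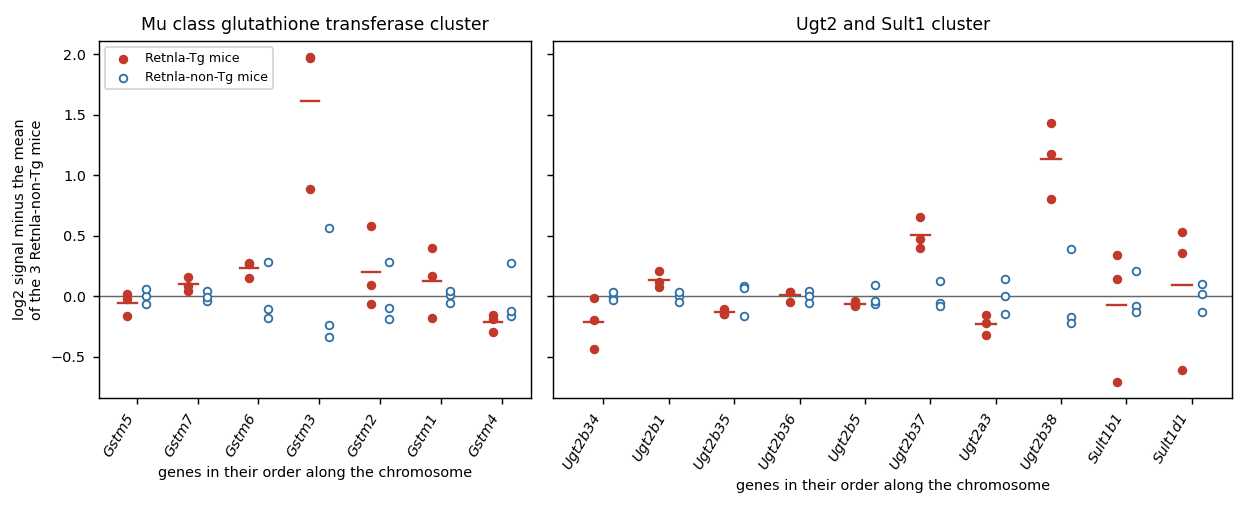
Log2 signal of each mouse minus the mean of the 3 Retnla-non-Tg mice (y axis) for the genes above the filter in the mu class cluster (left) and in the Ugt2 and Sult1 cluster (right), in their order along the chromosome (x axis). Filled points are Retnla-Tg mice with their mean as a line, and open points are Retnla-non-Tg mice. Gstm3, with a mean of 1.61, and Ugt2b38, with 1.14, stand out from neighbours whose means lie between -0.23 and 0.23, apart from Ugt2b37 at 0.51.

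Among the other glutathione transferases the alpha and theta classes had negative medians. Gsta3, the alpha class gene known for conjugating aflatoxin epoxide in mouse liver, had log2 signals of 14.64, 14.80 and 14.93 in Tg livers, against 14.83, 15.02 and 15.04 in non-Tg livers. Gsta2 read 13.18, 12.87 and 12.95 in Tg livers, against 13.17, 13.43 and 13.36 in non-Tg livers. For both genes 2 Tg livers lay below all non-Tg livers and 1 lay among them, and the log2 differences were -0.17 ± 0.10 and -0.32 ± 0.11 (SE, n = 3 per group). Gsta4, known for conjugating the lipid peroxidation product 4-hydroxynonenal, stood at 0.12 ± 0.13 (SE). The probe set shared by Gsta1, Gsta2 and Gm3776 gave 0.11, opposite in sign to the Gsta2 set. The alpha class median was -0.17, with 1 of 3 genes higher.

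In the theta class Gstt1, which handles small halogenated compounds, read 13.26, 13.56 and 13.94 in Tg livers, against 13.88, 13.90 and 13.998 in non-Tg livers. Tg 5 was the lowest and Tg 7 lay among the non-Tg livers. The log2 difference was -0.34 ± 0.15 (SE, n = 3 per group). Gstt3, the next gene on chromosome 10, read 10.001, 10.85 and 10.97 in Tg livers, against 11.46, 10.92 and 11.31 in non-Tg livers, a difference of -0.62 ± 0.25 (SE). Here too Tg 5 was lowest, and without that mouse Gstt1 differed by -0.18 and Gstt3 by -0.32. Gstt2 differed by 0.02 ± 0.11 (SE). Gstt1 differed by -0.47 in the lower-bioC set and by -0.01 in the higher one, and Gstt3 by -1.03 and -0.15. Limma adjusted p for the 3 theta class genes ran from 0.805 to 0.974.

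Differences in the remaining cytosolic classes were small. The pi class gene Gstp1, known to be more abundant in male than in female mouse liver, read 16.34, 16.24 and 16.31 in Tg livers, against 16.27, 16.33 and 16.19 in non-Tg livers. The groups overlapped, with a difference of 0.03 ± 0.07 (SE, n = 3 per group) and a 95% confidence interval of -0.12 to 0.19 on the log2 scale. These signals are near the top of the scale, which reached 16.804, where arrays can saturate. Gstp3 stood at 0.30 ± 0.21 (SE). The zeta class gene Gstz1, which isomerizes maleylacetoacetate in tyrosine breakdown, differed by 0.01 ± 0.12, the mitochondrial and peroxisomal Gstk1 by -0.07 ± 0.09, and Gsto1, an omega class enzyme, by 0.04 ± 0.09 (SE). A second Gsto1 probe set above the filter gave the opposite sign, at -0.15 ± 0.11 (SE).

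Microsomal transferases included a lower gene without overlap. Mgst3, a membrane enzyme with glutathione transferase and peroxidase activity, read 9.63, 9.49 and 9.68 in Tg livers, against 9.88, 10.12 and 10.45 in non-Tg livers. All 3 Tg values lay below all 3 non-Tg values, and the log2 difference was -0.55 ± 0.17 (SE, n = 3 per group), or 0.682-fold with a 95% confidence interval of 0.523 to 0.889. It did not pass (limma adjusted p = 0.735). Mgst3 differed by -0.32 in the lower-bioC set and by -0.61 in the higher one. Its second probe set, below the filter at a mean of 5.30, gave 0.80 ± 1.00 (SE). Mgst1, the abundant microsomal form of liver, read 15.93, 15.79 and 15.83 in Tg livers, against 15.84, 15.97 and 15.99 in non-Tg livers, a difference of -0.08 ± 0.07 (SE).

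Ugt2 genes lie in a row on chromosome 5 and include the second large difference. Ugt2b38 read 10.70, 10.07 and 10.45 in Tg 5, Tg 6 and Tg 7, against 9.09, 9.04 and 9.66 in non-Tg 1, non-Tg 2 and non-Tg 3. All 3 Tg livers were above all 3 non-Tg livers. The log2 difference was 1.14 ± 0.22 (SE, n = 3 per group), or 2.20-fold with a 95% confidence interval of 1.57 to 3.08 (limma adjusted p = 0.378). It was 1.29 within the lower and 1.09 within the higher set of arrays. Leaving out each mouse in turn gave 0.99 to 1.33.

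Ugt2b37, whose upstream window is the one most like that of Ugt2b38, differed in the same direction. Its log2 signal was 7.96, 7.71 and 7.79 in Tg livers, against 7.26, 7.44 and 7.23 in non-Tg livers. The groups did not overlap, and the difference was 0.51 ± 0.24 (SE, n = 3 per group; limma adjusted p = 0.807), or 0.58 and 0.45 within the lower and higher sets. Ugt2b5, the other gene with a closely related window, read 15.30, 15.29 and 15.33 in Tg livers, against 15.31, 15.47 and 15.33 in non-Tg livers, a difference of -0.06 ± 0.07 (SE). Each of these 3 genes has a single probe set, and whether the Ugt2b37 probes also read Ugt2b38 transcripts was not tested.

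The other Ugt2 genes with a probe set of their own differed by at most 0.23 in size. A set shared by Ugt2a1 and Ugt2a2 gave -0.37 ± 0.53 (SE), with overlap. Ugt2b1, a hepatic glucuronosyltransferase, read 15.15, 15.25 and 15.12 in Tg livers, against 15.04, 15.08 and 14.995 in non-Tg livers. The groups did not overlap although the difference was only 0.14 ± 0.07 (SE, n = 3 per group). Ugt2a3 was lower without overlap, at 13.09, 13.19 and 13.26 in Tg livers, against 13.26, 13.41 and 13.55 in non-Tg livers, a difference of -0.23 ± 0.10 (SE). Tg 7 and non-Tg 1 were almost level for that gene. Ugt2b34, Ugt2b35 and Ugt2b36 stood at -0.21, -0.13 and 0.01. Over the 8 Ugt2 genes 4 were higher and 4 lower, with a median of -0.03, and groups did not overlap for 4 of the 8, against 11.7% of all genes tested.

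**Figure D3:**
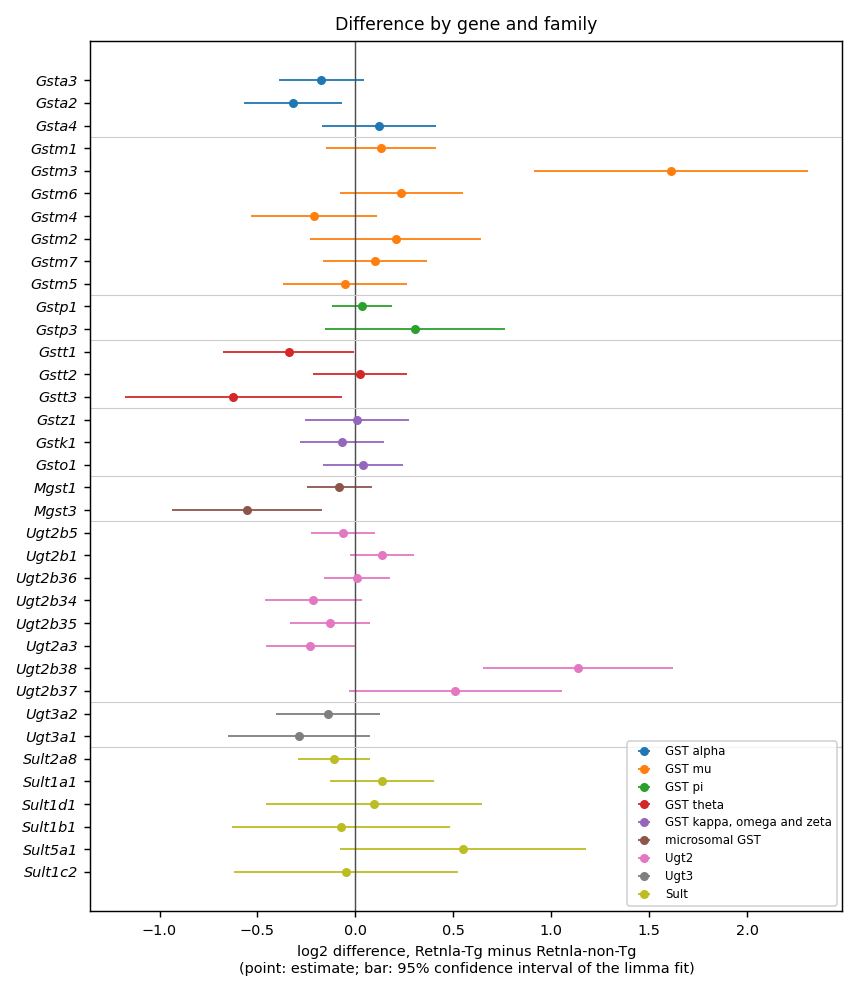
Log2 difference, Retnla-Tg minus Retnla-non-Tg (x axis), for the 36 conjugating enzyme genes above the filter (rows, coloured by family), with 95% confidence intervals of the limma fit over all genes. Gstm3 at 1.61 and Ugt2b38 at 1.14 lie far right of 0, Mgst3 at -0.55 and Gstt3 at -0.62 lie left, and the intervals of Gsta2, Gstt1 and Ugt2a3 also leave out 0, while those of the other genes include it.

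Ugt1a genes share their last exons, and 3 probe sets assigned to the 8 of them together read that shared part. Family 1 includes the enzyme that conjugates bilirubin. The first of these sets read 15.18, 15.30 and 15.29 in Tg livers, against 15.31, 15.40 and 15.38 in non-Tg livers. All 3 sets were lower in Tg livers without overlap, while 5.64% of all genes tested were lower without overlap and 11.7% did not overlap in either direction. The log2 differences were -0.11, -0.13 and -0.14, each with an SE of 0.10. Their limma adjusted p over all probe sets ran from 0.895 to 0.916. The 3 sets read the same transcripts and are not independent of each other. In family 3, Ugt3a1 read 10.96, 11.42 and 11.61 in Tg livers, against 11.68, 11.63 and 11.55 in non-Tg livers, and Ugt3a2 read 13.84, 14.14 and 14.25 in Tg livers, against 14.29, 14.07 and 14.30 in non-Tg livers. Tg 5 was lowest for both genes, and the differences were -0.29 ± 0.16 and -0.14 ± 0.12 (SE, n = 3 per group). Without Tg 5 they were -0.10 and -0.02.

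The sulfotransferases above the filter, 6 of 13, showed no difference without overlap. Sult2a8, a bile acid sulfotransferase of mouse liver, read 14.66, 14.67 and 14.64 in Tg livers, against 14.65, 14.89 and 14.75 in non-Tg livers, a difference of -0.11 ± 0.08 (SE, n = 3 per group). Sult1a1, the phenol sulfotransferase, read 14.02, 14.22 and 14.24 in Tg livers, against 14.08, 13.79 and 14.21 in non-Tg livers, a difference of 0.14 ± 0.12 (SE). Sult1d1, Sult1b1 and Sult5a1 varied most between Tg livers. Sult5a1 read 9.15, 10.21 and 10.02 in Tg livers, against 9.45, 8.86 and 9.43 in non-Tg livers, and Tg 5 was again the lowest Tg liver, below 2 of the non-Tg livers. Its difference was 0.55 ± 0.28 (SE), and without Tg 5 the median of the 6 sulfotransferases was 0.22, against 0.02 with all mice.

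The 7 dim sulfotransferases include the estrogen sulfotransferase Sult1e1 and the genes Sult2a2 and Sult3a1, known as female-predominant in mouse liver. Their means lay between 1.98 and 5.08. Sult3a1 read 5.94, 1.31 and 2.86 in Tg livers, against 0.66, 1.07 and 0.07 in non-Tg livers, and Sult1e1 read 1.89, 2.73 and 1.82 in Tg livers, against 4.12, 2.52 and 3.68 in non-Tg livers. No detection calls were at hand, and the within-group SD of the 10 dim members had a median of 1.44, against 0.18 for the 36 others. Such values are noise-limited, and in a fit without the filter the limma adjusted p of the dim members was between 0.828 and 0.983.

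Tg 5 stood at one end or the other for many of these genes. It was the lowest of the 6 livers for 11 of the 36 genes and the highest for 10. Over all genes tested it was the lowest for 17.7%. It was the highest for 22.9% of all genes, more often than any other liver. The lowest 11 were Gsta3, Gstm4, Gstz1, Gstt1, Gstt3, Ugt2b34, Ugt2a3, Ugt3a1, Ugt3a2, Sult1b1 and Sult1d1. The highest 10 were Gsta4, Gstm1, Gstm3, Gstm7, Gstp1, Gstp3, Gstk1, Ugt2b37, Ugt2b38 and Sult1c2. Both lists were drawn up after the values were seen. Non-Tg 3 was the lowest for 8 of the 36 genes and the highest for 7, against 18.4% and 13.8% of all genes tested. Without Tg 5 the differences of Gsta4 and Sult1b1 changed sign, to -0.02 and 0.25, against 0.12 and -0.07 with all mice.

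By family, the measure for each mouse was the median deviation of the genes from their mean over the 6 arrays. For the theta class it was -0.49, -0.07 and 0.05 in Tg 5, Tg 6 and Tg 7, against 0.12, 0.01 and 0.24 in non-Tg 1, non-Tg 2 and non-Tg 3. Tg 5 was also the lowest liver for the Ugt3 pair, at -0.41, and for the sulfotransferases, at -0.22. It was the highest for the pi class, at 0.27. For the mu class it was the highest too, at 0.113, but nearly level with Tg 6 (0.105) and non-Tg 2 (0.0894). Tg 5 lay between the lowest and the highest liver for the alpha class (0.02) and the kappa, omega and zeta classes (0.04). The same held for the microsomal class (-0.10) and the Ugt2 genes (-0.01). Over all 36 genes the median deviation in Tg 5 was -0.02, beside 0.04 over all genes tested.

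**Figure D4:**
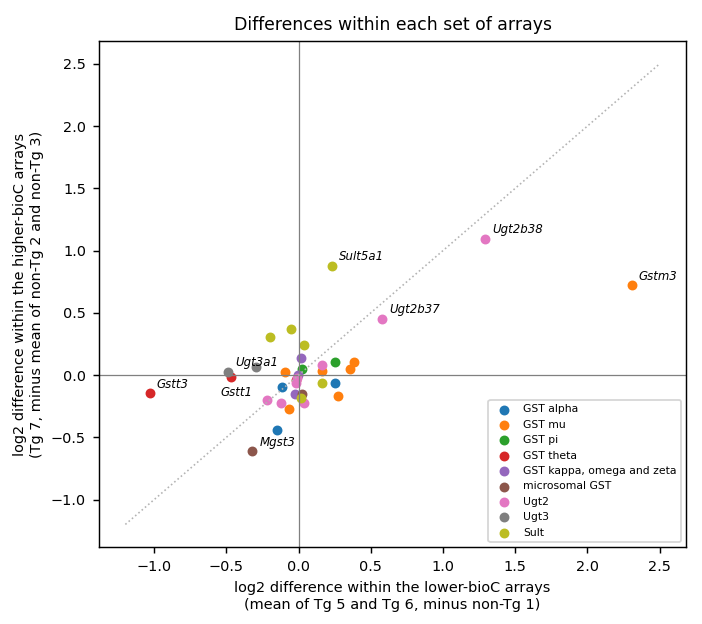
Log2 differences of the 36 genes above the filter within the lower-bioC arrays (x axis, mean of Tg 5 and Tg 6 minus non-Tg 1) and within the higher-bioC arrays (y axis, Tg 7 minus the mean of non-Tg 2 and non-Tg 3), coloured by family, with equality dotted. Ugt2b38, at 1.29 and 1.09, and Ugt2b37, at 0.58 and 0.45, lie near the dotted line, while Gstm3, at 2.31 and 0.72, and Gstt3, at -1.03 and -0.15, lie away from it.

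Genes that supply or surround conjugation were read from 7 lists, and no gene in them passed over all genes. Glutathione synthesis and turnover had a median of 0.02 over 17 genes above the filter, 9 higher and 8 lower, within -0.92 to 0.57. UDP-glucuronic acid supply had a median of 0.01 over 9 genes. Slc35d2, a nucleotide sugar transporter, read 10.03, 9.76 and 10.12 in Tg livers, against 10.43, 10.74 and 10.26 in non-Tg livers, a difference of -0.51 ± 0.17 (SE, n = 3 per group; limma adjusted p = 0.776). Sulfate donor supply and sulfate ester breakdown had a median of -0.12 over 12 genes, 5 higher and 7 lower. Slc26a1, a sulfate transporter of the hepatocyte membrane, read 11.82, 11.24 and 11.16 in Tg livers, against 10.99, 10.77 and 10.69 in non-Tg livers. Its difference was 0.59 ± 0.18 (SE; limma adjusted p = 0.735), but a second probe set of the gene gave -0.06.

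Other conjugating enzymes had a median of -0.05 over 13 genes, 4 higher and 9 lower. Nnmt, which methylates nicotinamide, read 12.87, 13.24 and 12.99 in Tg livers, against 11.97, 12.19 and 11.65 in non-Tg livers. It differed by 1.10 ± 0.15 (SE; limma adjusted p = 0.0696), without overlap. Conjugate exporters had a median of -0.02 over 8 genes, and regulators -0.07 over 19 genes, 6 higher and 13 lower. Groups did not overlap for 2 of the 19 regulators, against 11.7% of all genes tested, and both were lower in Tg livers. These were Nfe2l2, which encodes NRF2, at -0.21 ± 0.11 and Bach1 at -0.35 ± 0.14 (SE), both named after their values were seen. Phase I and reductase genes that mark NRF2, CAR, PXR and AHR activity had a median of -0.09 over 19 genes. Of these, 4 were higher and 15 lower, a split that was not tested. Over all genes tested, 6613 were higher and 6092 lower. Cyp2c55 of that list, at 0.80 ± 0.26, and Cyp2b10, at -0.79 ± 0.99 (SE), overlapped between groups. Cyp2b9 of the same list, a steroid hydroxylase, read 6.39, 7.57 and 6.45 in Tg livers, against 9.34, 9.17 and 9.97 in non-Tg livers. It differed by -2.69 ± 0.35 (SE; limma adjusted p = 0.0610), while Nqo1, the reductase commonly used as an NRF2 marker and chosen here after its value was seen, stood at -0.06 ± 0.25 (SE). Nnmt and Cyp2b9 passed under some other settings, given at the end.

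**Figure D5:**
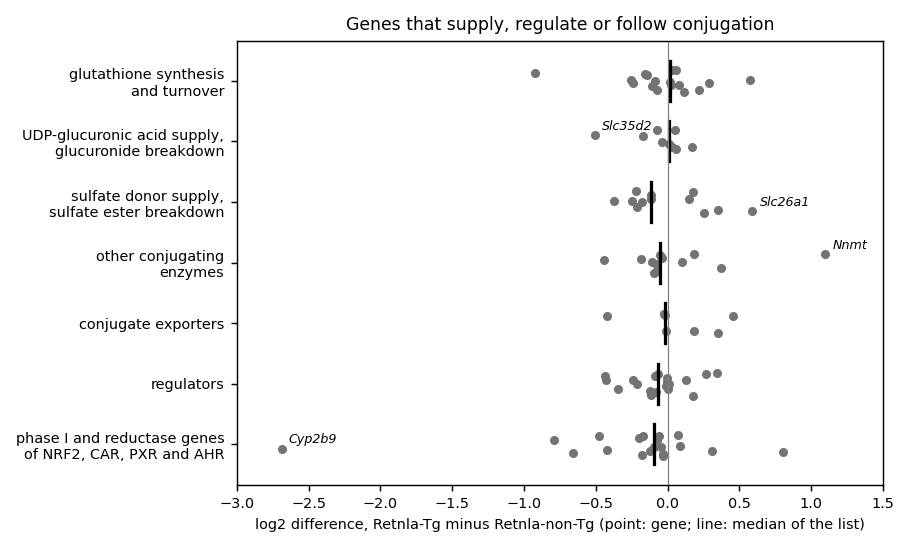
Log2 difference, Retnla-Tg minus Retnla-non-Tg (x axis), of genes above the filter in 7 lists of genes that supply, regulate or accompany conjugation (rows), 1 point per gene with the list median as a line. Medians lie between -0.12 and 0.02, and the labelled genes are those whose groups did not overlap with a difference of at least 0.5 in size.

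The tissue label was checked against marker genes. All 7 measured hepatocyte markers of 8 listed were above the filter, and the summed signal of that list was 454051 to 481201 in Tg livers, against 434356 to 473681 in non-Tg livers. No gene of the marker lists passed limma's adjusted p of 0.05. Summed signals, which rest mostly on the brightest probe sets of a list and were not tested, overlapped between groups for all lists but 4. Among single genes tested, groups did not overlap for 11.7%. The sum over 6 periportal hepatocyte markers was 129633 to 135817 in Tg livers, against 103370 to 124362 in non-Tg livers, while Hal (-0.03) and Hsd17b13 (-0.04) of that list had log2 differences of the other sign. The sum over 3 erythroid markers was 4442 to 6215 in Tg livers, against 3336 to 3824 in non-Tg livers. The sum over 5 stellate cell markers was 8474 to 10519 in Tg livers, against 10547 to 12333 in non-Tg livers, while Col1a1 of that list stood at 0.15 on the log2 scale. Small intestine markers, of which Fabp2 alone was above the filter, summed to 8717 to 9572 in Tg livers, against 10251 to 12579 in non-Tg livers. The 9 pericentral markers overlapped between groups, at 150613 to 165369 in Tg livers, against 163217 to 176758 in non-Tg livers, and the 6 macrophage markers reached 28055 in Tg 6, against 10811 to 16326 in the other 5 livers. Lymphocyte markers, 5 measured of 6, summed to 553 and 579 in Tg 5 and Tg 6 and to 313 in Tg 7, against 261 to 354 in non-Tg livers. Bile duct markers, 4 measured of 5, summed to 241 to 462 in Tg livers, against 350 to 552 in non-Tg livers. Endothelial, pancreas and kidney sums overlapped between groups. In lists whose sums overlapped, some single genes did not. These were the hepatocyte markers Tat (1.12 on the log2 scale) and Apob (-0.20), the pericentral marker Rgn (-0.26) and the pancreas marker Prss2 (2.19). Des, Cd3e, Hba-a1, Cpa1, Vil1, Lct and Umod were below the filter. The part of the marked cell types in the differences of conjugating enzymes was not tested. In whole liver fewer cells of a type and less RNA per cell cannot be told apart.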

How the data were processed

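Liver RNA of 6 mice was measured on Affymetrix arrays. The deposited table holds log2 signals for 45101 probe sets, on a log2 scale judged from the values, -2.64 to 16.804. The submitters' processing notes name GCOS, and the sources used here give neither its version nor its algorithm. The trimmed mean of the antilogged signals (2% at each end) was 500.0 on every array, so the arrays were scaled before deposit. Median log2 signals ran from 6.49 to 6.74 and correlations between arrays from 0.881 to 0.891. The number of arrays limits the precision.

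After setting aside 64 control probe sets, the platform annotation gave 1 gene symbol for 34945, several for 932 and none for 9160. Of the 34945, 34741 matched a RefSeq gene of GRCm38.p6 by Entrez number, and 0 symbols changed. The files name no build, so that table gave names and gene order only. Probe sets with a mean above the 40th percentile were kept, and the highest-mean set stood for each of 12705 genes. Groups were compared with limma 3.58.1 in R 4.3.3 (lmFit, eBayes with an intensity trend, two-sided, Benjamini-Hochberg over all genes at 0.05). Each SE is the moderated one. Per the labels, each array is 1 mouse. The procedure was tried on simulated data with independent noise. Those data held no array sets or outlying mice, so that trial cannot speak to their effects. Upstream windows were aligned globally with Biopython 1.88, and figures drawn with matplotlib 3.10.9 under Python 3.11.15.

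Genes given with values are, per family, the 2 with the highest mean signal and those without overlap at 0.5 log2 or more, and in each list of surrounding genes those meeting the same condition. Any other gene given with values was chosen after its values were seen. Members and lists were chosen with earlier results of these data known. Alternatives were constants of 16 or 64 added before the log, filters at other percentiles or none, quantile normalization, median centring, no trend in the moderation, robust variance, other probe set rules, the array sets as a block, and leaving out each mouse.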

Additional observations from a re-analysis of the deposited data

How the results depend on the processing

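Across 18 alternatives, 0 conjugating enzyme genes passed limma's adjusted p of 0.05 in either direction. Gstm3 kept its direction in all 18, at 1.36 to 1.97 (limma adjusted p 0.0505 to 0.978), as did Ugt2b38 at 0.99 to 1.33 (0.233 to 0.996), Ugt2b37 at 0.38 to 0.58 and Mgst3 at -0.69 to -0.40. With the array sets as a block Gstm3 stood at 1.51 and Ugt2b38 at 1.19. Over all genes, 2 higher became 4 with 64 added or with the filter at the 20th percentile and 1 with the second probe set of each gene, and ran from 2 to 3 without single mice. On the lower side 0 became 2 with 64 added, the filter at the 20th percentile or median centring, 1 with 16 added, robust variance or the block, and 0 to 1 without single mice. Cyp2b9 passed with 16 added (-2.52), 64 added (-2.14), the filter at the 20th percentile or robust variance (-2.69), median centring (-2.72) and without Tg 6 (-3.07), and Nnmt with 64 added (1.08) and the filter at the 20th percentile (1.10).

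Differences near 0 changed sign. Gstm1 was -0.00212 without Tg 5 (-0.00212 to 0.28 over single mice left out), Gstp1 -0.00102 without non-Tg 3 (-0.00102 to 0.0662), Gstt2 -0.00404 with median centring and -0.0275 with the block (-0.0353 to 0.0795), Gstz1 -0.0209 with median centring (-0.0832 to 0.13), and Mgst1 0.00025 with the mean of all probe sets and 0.0819 with the second one. Slc26a1 was -0.0566 on its second probe set. Family medians moved by more than their spread between mice for the alpha class (-0.0787 with the second probe set), for kappa, omega and zeta (-0.0561 with the mean and -0.0688 with the second probe set), and for the microsomal class (-0.0814 without a filter or at the 20th percentile, where dim Mgst2 enters). The mu class median ran from 0.0677 (without Tg 5) to 0.26 (without Tg 7) and that of sulfotransferases from -0.0678 (without Tg 7) to 0.22 (without Tg 5) when single mice were left out. The median of all members was 0.00805 without a filter, -0.0480 with the filter at the 20th percentile, -0.0487 with median centring, -0.0503 with the second probe set, and -0.0531 to -0.00252 without single mice. The causes were not tested. No paired analysis was possible because each array is a different mouse and the labels give no pairing of mice.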
